A study of Mus musculus with 6 samples.

Results

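The genes of the unfolded protein response (UPR) were examined in inguinal white adipose tissue (iWAT) of WT mice and of mice lacking the zinc transporter ZIP13, which is encoded by Slc39a13. A list of 39 genes was taken, and each was read from array probes whose accession is a RefSeq transcript of that gene. All 39 were measured, out of 15307 genes tested on the arrays. They fell into 15 chaperones and folding enzymes that are targets of ATF6 and XBP1, 8 targets of ATF4 and CHOP, 11 genes of ER-associated degradation, and 5 sensors and transcription factors. RNA of 3 WT and 3 Zip13-KO samples of iWAT, from mice 10 weeks old, was hybridized to 6 Agilent arrays. In this 1-colour assay a brighter spot means more of the transcript it binds. Zip13-KO mice carried a Neo cassette in place of exons 6 to 8 of the gene in every tissue, so that the fat cell was not the only cell without the protein. Mice of both genotypes were on the C57BL/6J background after at least 7 generations of backcrossing, and both were given their food as powder. The labels do not state that each RNA came from a separate mouse, and p-values then measure only the spread between these 6 samples. The 12 adipocyte genes read were all well above background on all 6 arrays. This does not identify the tissue, since 14633 of the 15307 genes tested were as well. So were all 10 macrophage and all 9 skeletal muscle markers tested.

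The UPR is the set of signals by which a cell matches the folding capacity of the endoplasmic reticulum (ER) to the load of new secretory and membrane protein. Its sensors in the ER membrane are PERK (Eif2ak3), the nuclease Ern1 and ATF6: Ern1 activates Xbp1 by splicing its RNA, ATF6 is released by proteolysis, and both then raise chaperones, folding enzymes and degradation genes, whereas PERK phosphorylates eIF2α and thereby raises translation of ATF4 and, further down, CHOP (Ddit3). ATF4 also answers other eIF2α kinases, which sense amino acid shortage, mitochondrial damage, heme or double-stranded RNA, so that its targets do not report on the ER alone. The arrays measured transcript amounts, and neither the splicing of Xbp1 nor any protein was analysed here.

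The branches leave different letters in promoters, and the genes on which the results turn are shown by theirs. Windows from 250 bases before to 50 bases after a transcription start were searched on both strands for the ER stress response element ERSE (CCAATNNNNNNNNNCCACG), for ERSE-II (ATTGG, any base, then CCACG) and for the element of C/EBP and ATF proteins called CARE (TGATGNAA). ERSE and ERSE-II share the letters CCACG, and no promoter of a member held both. A window was found for 35 of the 39 members, and none for Atf6, Derl1, Hyou1 and Manf. ERSE was present in 9 of these 35 genes, and in 0.137% of all 27025 genes with a window. It lay in 7 of 13 chaperones and folding enzymes (Calr, Canx, Creld2, Dnajc3, Hsp90b1, Hspa5 and Pdia6), in Derl3 and Syvn1 of the degradation group, and in no ATF4 or CHOP target. ERSE-II was present in Dnajb11 and Herpud1, and in 0.0444% of all genes with a window. CARE was present in Asns, Atf3, Chac1 and Trib3, which are 4 of the 8 ATF4 and CHOP targets, and in Herpud1. It was present in 4.51% of all genes with a window. A match is a description of letters and not a site in use, and the lack of a match says only that these letters are not in the window. The stretches below come from RefSeq on GRCm38.p6, run 5′ to 3′ along the strand of the gene, end at the base before the start except in Trib3, and carry each match in capitals. Hspa5 (chr2:34771840-34772089, plus strand) and Hsp90b1 (chr10:86705445-86705694, minus strand) are shown as the chaperones with ERSE, the match of Hspa5 beginning at base -65 from the start and those of Hsp90b1 at -212 and, on the opposite strand, at -107. Sdf2l1 (chr16:17132384-17132633, minus strand) is shown as the member called lower, and it held none of the 3 elements. Herpud1 (chr8:94386179-94386428, plus strand) is shown because it held ERSE-II at -52 and, on the opposite strand, CARE at -112. Asns (chr6:7693210-7693459, minus strand), with CARE at -23, and Trib3 (chr2:152344031-152344310, minus strand), with CARE on the opposite strand at base 15 after the start, are shown as the ATF4 targets called higher. The stretch of Trib3 runs 30 bases past the start.
Hspa5: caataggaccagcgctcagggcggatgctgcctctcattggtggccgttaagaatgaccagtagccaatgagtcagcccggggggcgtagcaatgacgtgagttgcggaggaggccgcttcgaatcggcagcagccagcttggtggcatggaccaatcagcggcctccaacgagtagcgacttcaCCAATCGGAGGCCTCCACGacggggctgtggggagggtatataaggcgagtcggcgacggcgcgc
Hsp90b1: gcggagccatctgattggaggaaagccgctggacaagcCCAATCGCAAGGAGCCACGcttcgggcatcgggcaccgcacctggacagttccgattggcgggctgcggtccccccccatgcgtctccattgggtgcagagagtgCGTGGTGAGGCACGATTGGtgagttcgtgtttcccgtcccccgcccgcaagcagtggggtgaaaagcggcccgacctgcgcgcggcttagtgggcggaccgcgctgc
Sdf2l1: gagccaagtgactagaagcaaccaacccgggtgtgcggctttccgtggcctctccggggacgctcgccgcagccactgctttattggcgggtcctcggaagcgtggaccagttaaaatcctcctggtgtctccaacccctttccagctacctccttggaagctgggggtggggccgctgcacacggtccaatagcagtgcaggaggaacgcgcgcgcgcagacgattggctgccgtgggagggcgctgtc
Herpud1: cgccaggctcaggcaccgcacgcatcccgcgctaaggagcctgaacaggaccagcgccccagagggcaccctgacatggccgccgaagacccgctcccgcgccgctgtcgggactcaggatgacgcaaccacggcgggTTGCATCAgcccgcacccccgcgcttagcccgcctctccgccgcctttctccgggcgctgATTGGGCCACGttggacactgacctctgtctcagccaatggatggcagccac
Asns: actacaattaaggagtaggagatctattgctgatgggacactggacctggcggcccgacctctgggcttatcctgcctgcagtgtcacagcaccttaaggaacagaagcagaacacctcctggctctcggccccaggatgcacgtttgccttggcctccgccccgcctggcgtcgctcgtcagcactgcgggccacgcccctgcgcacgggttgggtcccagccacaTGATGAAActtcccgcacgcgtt
Trib3: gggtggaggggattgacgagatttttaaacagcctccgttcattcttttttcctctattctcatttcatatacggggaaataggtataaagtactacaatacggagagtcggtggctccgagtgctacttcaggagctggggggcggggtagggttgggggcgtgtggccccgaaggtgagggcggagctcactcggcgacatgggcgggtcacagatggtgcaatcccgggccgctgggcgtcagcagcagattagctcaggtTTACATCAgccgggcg

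Arrays were compared after quantile normalization of log2 intensity, and every level below is on that scale. Slc39a13 itself read 11.30, 10.87 and 10.71 in WT iWAT against 6.76, 6.67 and 6.47 in Zip13-KO iWAT, a fall that goes with the labels (log2 fold change -4.33, SE 0.17, limma adjusted p = 0.00133), although whether its probe lies within the deleted exons was not determined. All 6 arrays lay on 1 slide. The 3 WT arrays and Zip13-KO replicate 1 stood in slide column 1 and the other Zip13-KO arrays in column 2. Between 62.5% and 63.2% of spots were well above background on WT arrays, against 58.8% to 60.4% on those of Zip13-KO, and all 39 members were well above background on all 6. A gene was called when its Benjamini-Hochberg adjusted p in limma was under 0.05 and its change exceeded 1.5-fold (0.58 on the log2 scale). With 3 arrays against 3, an exact permutation test of a single gene cannot go below a two-sided p of 0.1, so tests rest on the fit across all genes.

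In Zip13-KO iWAT the UPR genes did not move as a block. Of the 39 members, 3 were called higher (Trib3, Asns and Derl1) and 1 was called lower (Sdf2l1), whereas 10.4% of all genes tested were called higher, 8.36% lower and 18.7% in either direction. The share of members called was thus not above that of genes at large, and this was not tested. By the adjusted p alone, 6 members were higher, Atf5, Dnajb9 and Edem3 being added, and 2 were lower, Hspa5 being added, against 19.3% and 15.1% of all genes, or 34.4% in either direction. The arrays of the genotypes did not overlap in 8 members with higher and 11 members with lower values in Zip13-KO, against 29.1% and 25.9% of all genes, or 55% in either direction, and in 20 members they overlapped. The median log2 fold change over the members was -0.14, beside 0.00 over all genes. By group the median was -0.22 in chaperones and folding enzymes, 0.30 in ATF4 and CHOP targets, 0.09 in ER-associated degradation and -0.18 in sensors and transcription factors. The plots of members by array and of the change of each gene show that most chaperones sat slightly to the left of the WT mean while a few genes of the ATF4 and degradation groups stood apart to the right.

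**Figure D1:**
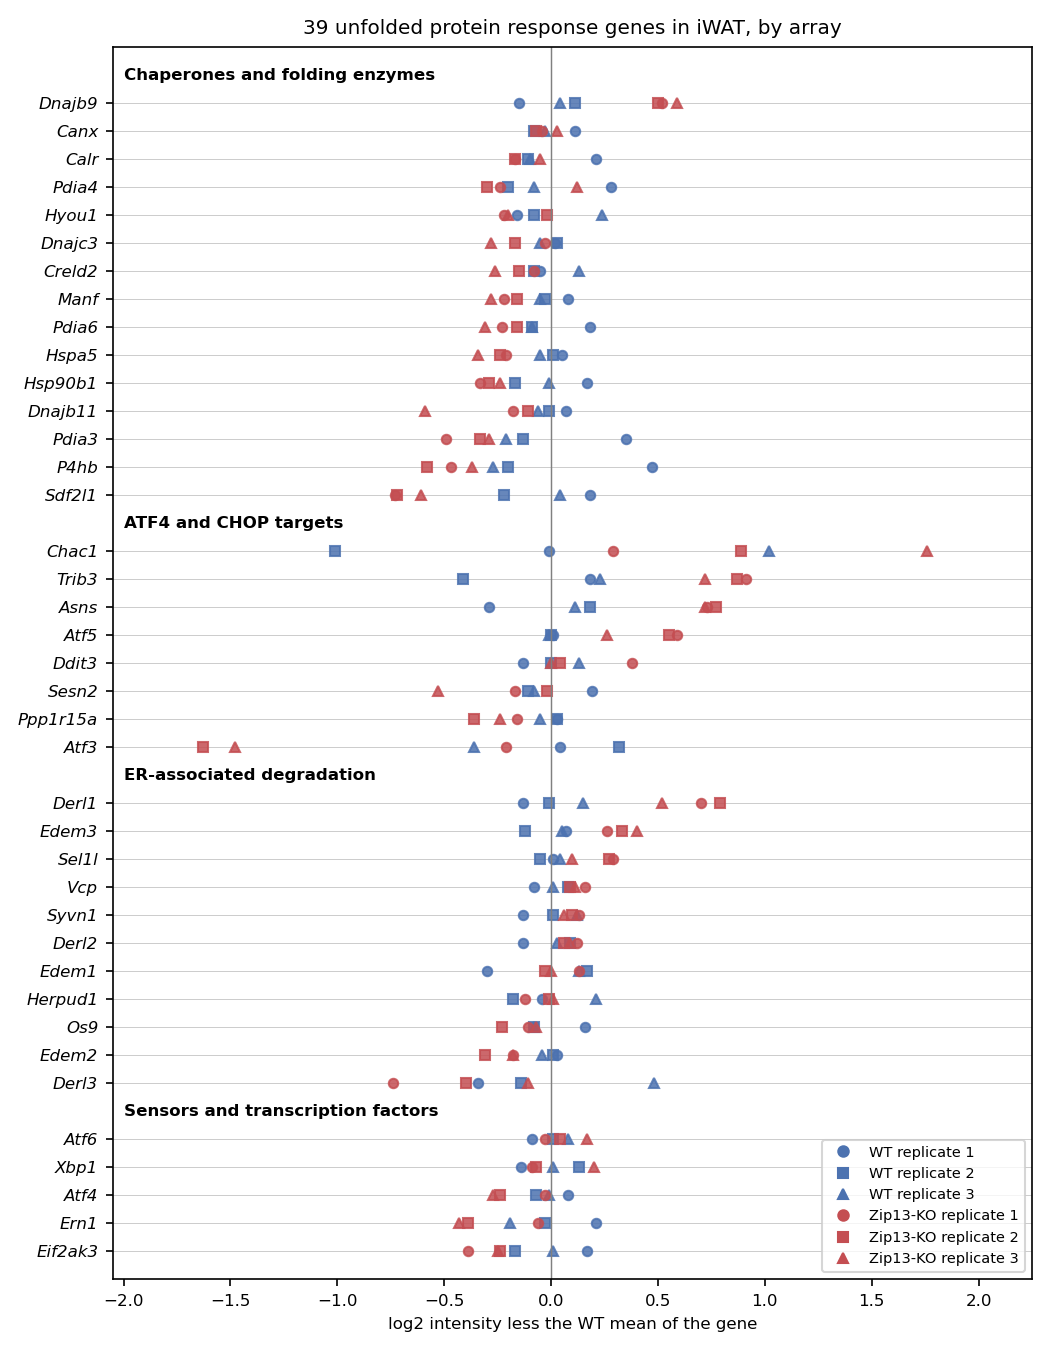
Log2 intensity of each of the 39 members on each of the 6 arrays, less the mean of the 3 WT arrays for that gene (x axis, log2 units), grouped by role and ordered by fold change. Blue symbols are WT and red symbols Zip13-KO arrays, with 1 shape for each replicate number. Sdf2l1 lies left and Asns, Trib3, Derl1 and Dnajb9 lie right of all WT arrays, and Chac1 and Atf3 show the widest scatter.

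**Figure D2:**
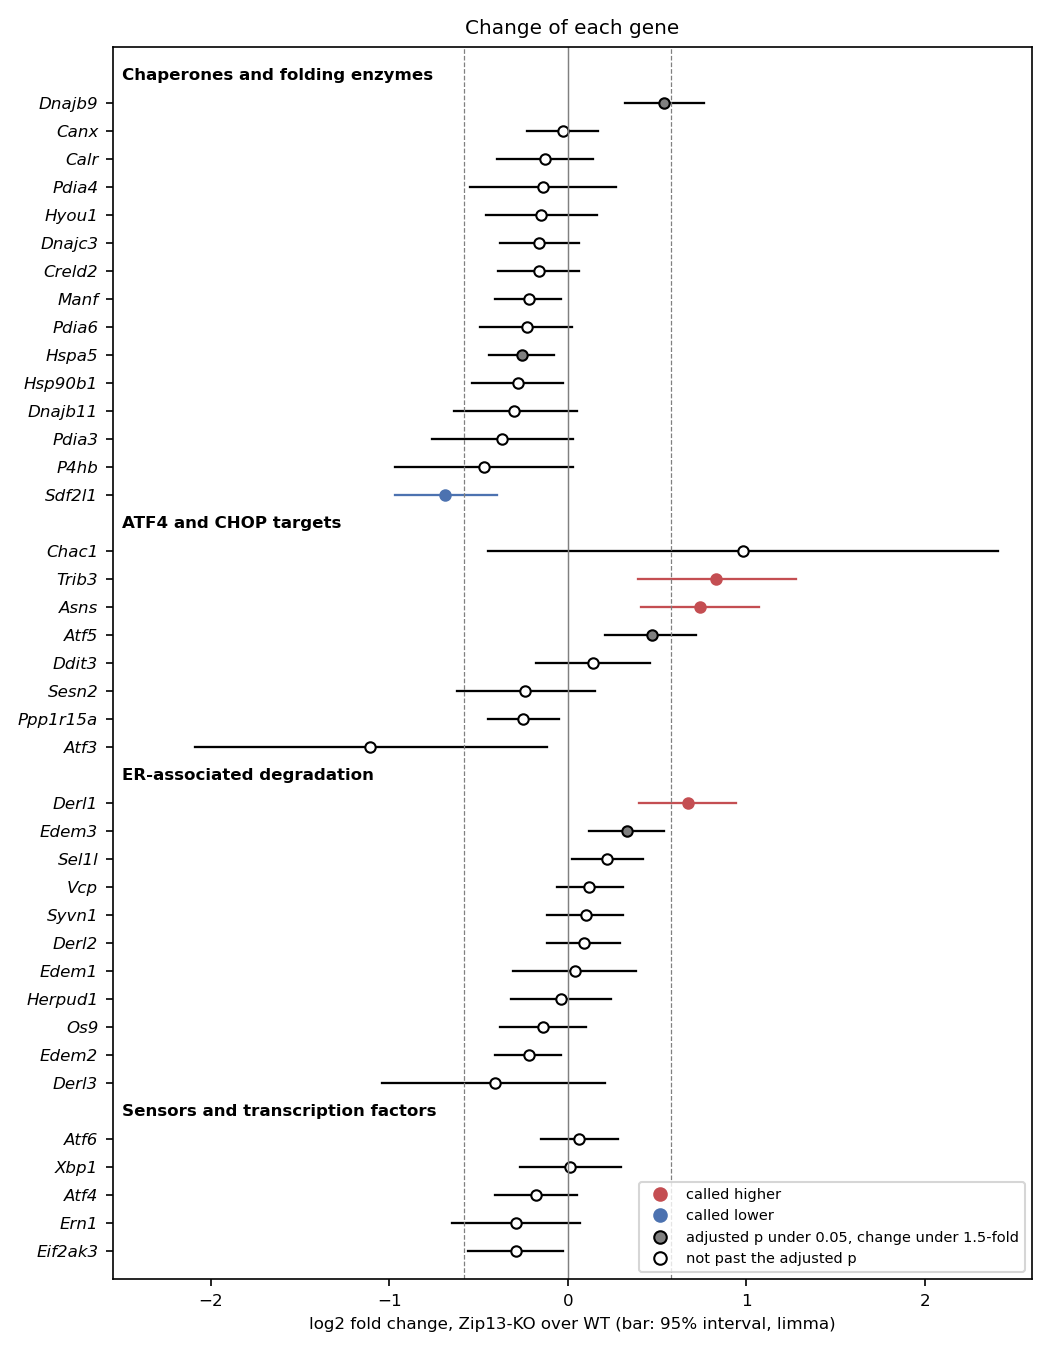
Log2 fold change of each member in Zip13-KO over WT (x axis), with its 95% interval from limma (3 arrays in each genotype). Dashed lines mark a change of 0.58 in either direction, filled red and blue points are the 3 members called higher and the 1 called lower, and grey points passed the adjusted p with a smaller change.

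Chaperones and folding enzymes leaned low in Zip13-KO, by small amounts. Of 15, 14 had a log2 fold change below 0, where 50% of all genes did, and Dnajb9 alone was above 0. The genotypes did not overlap in 8 members that were lower and in 1 that was higher. Over all genes the shares were 25.9% lower and 29.1% higher, or 55% in either direction. Per array, the median of the 15 genes relative to their WT means was 0.11, -0.08 and -0.05 in WT and -0.22, -0.17 and -0.28 in Zip13-KO, so that all Zip13-KO arrays were below all WT arrays and WT replicate 1 was the highest. Only Sdf2l1 passed both limits. When each array was scaled by its 75th percentile instead, the group's median was -0.13 with 13 of 15 below 0. Under that scaling genes with a mean level over 14, the range of Hspa5 and Hsp90b1, were placed 0.15 higher at the median than under quantile normalization. Without WT replicate 1, 12 of 15 were below 0, with a median of -0.19.

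Sdf2l1, which works with the cochaperone Dnajb11 in the complex around BiP, read 10.42, 10.02 and 10.27 in WT and 9.51, 9.51 and 9.62 in Zip13-KO. All 3 Zip13-KO arrays lay below all WT arrays, closer together than the WT arrays did. It fell by 0.69 on the log2 scale (SE 0.12, limma adjusted p = 0.0104), to 0.621 of the WT level, and it stayed called without each array in turn. Hspa5 encodes BiP, the central chaperone of the ER and the partner that holds the sensors inactive. It read 14.61, 14.57 and 14.51 in WT and 14.36, 14.33 and 14.23 in Zip13-KO. The genotypes were apart with little spread within either, and the difference was small (log2 fold change -0.26, SE 0.07, limma adjusted p = 0.0405). It did not pass with the 75th percentile scaling, where it was -0.06 with a limma adjusted p of 0.578, and it no longer passed when any single array was left out (limma adjusted p 0.054 to 0.119).

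Hsp90b1, the ER form of the Hsp90 chaperone, read 14.61, 14.27 and 14.43 against 14.11, 14.15 and 14.20. Its Zip13-KO arrays were all below its WT arrays, but the difference did not pass (log2 fold change -0.28, 95% interval -0.54 to -0.03, limma adjusted p = 0.0799). The disulfide isomerases form and reshuffle the disulfide bonds of new proteins. P4hb, which is also the shared subunit of the prolyl hydroxylases of collagen, read 13.30, 12.62 and 12.56 against 12.36, 12.25 and 12.46, and Pdia3 read 12.82, 12.34 and 12.26 against 11.98, 12.15 and 12.18. WT replicate 1 stood well above the other WT arrays in both, and neither passed (log2 fold change -0.47 with limma adjusted p = 0.123 for P4hb and -0.37 with limma adjusted p = 0.124 for Pdia3). Without WT replicate 1 the log2 fold changes were -0.24 for P4hb and -0.20 for Pdia3. Pdia6 was -0.23 by its brighter probe, whose genotypes did not overlap, and 0.29 by its other probe, so that its direction depended on the probe. Pdia4 overlapped between genotypes, with a log2 fold change of -0.14.

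Among the cochaperones, Dnajb11 (log2 fold change -0.30) and Manf (-0.22), a secreted factor that also binds BiP, had no overlap between genotypes without passing the test. Dnajc3, a BiP cochaperone that also inhibits eIF2α kinases, was at -0.16, Creld2 at -0.16 and Hyou1, the nucleotide exchange factor of BiP, at -0.15. The lectin chaperones Calr and Canx, which hold glycoproteins during folding, were at -0.13 and -0.03. The 95% intervals of these 5 genes all included 0 and none reached beyond a fall of 0.46 or a rise of 0.17. A change of 1.5-fold lay outside the interval of each.

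Dnajb9 moved the other way. This BiP cochaperone, a target of the Ern1 and Xbp1 branch that also restrains Ern1, read 10.47, 10.72 and 10.66 in WT and 11.14, 11.12 and 11.20 in Zip13-KO. All Zip13-KO arrays lay above all WT arrays, and closer together than these. It rose by a log2 fold change of 0.54 (SE 0.09, limma adjusted p = 0.0102), a 1.45-fold difference that is just short of the 1.5-fold limit. Its second probe read 6.44, 6.47 and 6.45 against 7.14, 7.07 and 7.09, a log2 fold change of 0.65 with a limma adjusted p of 0.00511, which passed both limits. Dnajb9 and Sdf2l1 lacked ERSE, ERSE-II and CARE in their windows alike, and they moved in opposite directions.

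The ATF4 and CHOP targets were split. Trib3 and Asns were called higher, Atf5 passed the adjusted p alone, and the remaining 5 members did not pass. Of the 8, 5 were above 0. The per-array median relative to WT was 0.02, 0.00 and 0.05 in WT and 0.34, 0.29 and 0.13 in Zip13-KO. The group's median was 0.39 with the 75th percentile scaling.

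Asns encodes asparagine synthetase, a target of ATF4 in the response to amino acid shortage as well as in the UPR. It read 11.95, 12.42 and 12.35 in WT and 12.97, 13.01 and 12.96 in Zip13-KO. The Zip13-KO arrays were nearly equal and all exceeded the WT arrays, among which replicate 1 was lowest. It rose by a log2 fold change of 0.74 (SE 0.13, limma adjusted p = 0.0119), or 1.67-fold, and it stayed called without each array in turn. Trib3 is a pseudokinase induced by ATF4 and CHOP that binds the kinase Akt and acts back on ATF4. It read 9.16, 8.57 and 9.22 in WT and 9.90, 9.86 and 9.70 in Zip13-KO. The genotypes did not overlap, with WT replicate 2 as the lowest array. It rose by a log2 fold change of 0.83 (SE 0.18, limma adjusted p = 0.0195), or 1.78-fold, and was not called without Zip13-KO replicate 1 (limma adjusted p = 0.07) or without Zip13-KO replicate 2 (limma adjusted p = 0.0662).

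Atf5, a transcription factor translated under eIF2α phosphorylation and known for its part in the mitochondrial stress response, read 14.03, 14.01 and 14.01 against 14.61, 14.56 and 14.27. The WT arrays were nearly equal and all Zip13-KO arrays were higher, replicate 3 the least. It rose by a log2 fold change of 0.47 (SE 0.11, limma adjusted p = 0.0215), below 1.5-fold. With the 75th percentile scaling it was 0.64 and called. It no longer passed the adjusted p without WT replicate 2 (limma adjusted p = 0.054), Zip13-KO replicate 1 (0.076) or Zip13-KO replicate 2 (0.0773). Chac1, an enzyme that degrades glutathione, had the highest log2 fold change of the members and the widest error. It read 9.57, 8.57 and 10.60 in WT and 9.87, 10.47 and 11.34 in Zip13-KO. WT replicate 3 exceeded 2 of the 3 Zip13-KO arrays, and the difference did not pass (log2 fold change 0.98, 95% interval -0.45 to 2.41, limma adjusted p = 0.232). Its size rested on single arrays, being 0.48 without WT replicate 2, 0.59 without Zip13-KO replicate 3 and 1.49 without WT replicate 3, and it did not pass in any of these.

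Ddit3, the gene of CHOP itself, read 8.92, 9.04 and 9.17 against 9.42, 9.08 and 9.05. Zip13-KO replicate 1 was above and the other Zip13-KO arrays were within the WT range (log2 fold change 0.14, 95% interval -0.18 to 0.46, limma adjusted p = 0.425). Ppp1r15a, the phosphatase subunit that reverses eIF2α phosphorylation, read 11.44, 11.44 and 11.36 against 11.25, 11.05 and 11.17. All Zip13-KO arrays were lower, and the difference did not pass (log2 fold change -0.25, SE 0.08, limma adjusted p = 0.0584). Sesn2, a stress sensor upstream of mTORC1, overlapped between genotypes with a log2 fold change of -0.24.

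Atf3 had the lowest fold change of the list. This transcription factor, a target of ATF4 that also behaves as an immediate early gene, read 9.34, 9.63 and 8.94 in WT and 9.09, 7.67 and 7.82 in Zip13-KO. Zip13-KO replicate 1 lay within the WT range and the other Zip13-KO arrays lay well below it. The difference did not pass (log2 fold change -1.11, SE 0.40, limma adjusted p = 0.078), and the call turned on single arrays. Without Zip13-KO replicate 1 Atf3 was at -1.56 and called (limma adjusted p = 0.0289), whereas it was at -0.84 without Zip13-KO replicate 2 (limma adjusted p = 0.201) and at -0.92 without Zip13-KO replicate 3 (limma adjusted p = 0.193). Within slide column 1, where Zip13-KO replicate 1 alone stands for its genotype, it was at -0.21. The 4 members of this group with CARE thus included the pair called higher, Asns and Trib3, besides Chac1 at 0.98 and Atf3 at -1.11, and the values of the 4 had no common direction.

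By ER-associated degradation, misfolded proteins are drawn back through the ER membrane and given to the proteasome. Among the 11 genes of this group only Derl1 was called. Of 11, 7 were above 0 and the per-array median ran from -0.08 to 0.05 in WT and from 0.06 to 0.13 in Zip13-KO. Derl1, a membrane protein of the retrotranslocation channel, read 12.32, 12.43 and 12.59 in WT and 13.14, 13.24 and 12.97 in Zip13-KO. All Zip13-KO arrays were above all WT arrays. It rose by a log2 fold change of 0.67 (SE 0.11, limma adjusted p = 0.00962), or 1.59-fold, and stayed called without each array in turn. Its second probe differed by 0.46 (limma adjusted p = 0.0156), which passed the adjusted p and not the 1.5-fold limit, and with the mean of both probes, 0.56, Derl1 was not called.

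Edem3, a mannosidase that marks glycoproteins for degradation, read 8.58, 8.39 and 8.56 against 8.78, 8.84 and 8.92. The genotypes did not overlap, and Edem3 rose by a log2 fold change of 0.33 (SE 0.09, limma adjusted p = 0.0308), less than 1.5-fold. It no longer passed without WT replicate 2 or without any one of the Zip13-KO arrays (limma adjusted p 0.0714 to 0.0941). Of its relatives, Edem1 was at 0.04 and Edem2 at -0.22, and neither passed. Sel1l, the adaptor of the ubiquitin ligase Syvn1, was at 0.22 and Syvn1 at 0.10. Vcp, the ATPase that pulls proteins out of the membrane, was at 0.12, the lectin Os9 at -0.14 and Herpud1, a scaffold of the ligase, at -0.04. Derl2 was at 0.09 by its brightest probe and at 0.18 and -0.07 by its other probes. None of these passed. Herpud1, which held both ERSE-II and CARE, read 12.42, 12.28 and 12.67 against 12.34, 12.45 and 12.47, with the Zip13-KO arrays inside the WT range.

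Derl3, a derlin typical of cells that secrete much protein, read 8.22, 8.43 and 9.05 in WT and 7.83, 8.17 and 8.45 in Zip13-KO. The genotypes overlapped and the difference did not pass (log2 fold change -0.41, limma adjusted p = 0.244). Derl1 and Derl3 therefore stood at opposite ends of the group, at 0.67 and -0.41, and this difference between the genes was not tested.

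No sensor or transcription factor passed the test. Xbp1 read 14.37, 14.64 and 14.52 against 14.42, 14.44 and 14.71, with overlapping arrays (log2 fold change 0.01, 95% interval -0.27 to 0.30). Atf6 was at 0.06, with an interval from -0.15 to 0.28. For both genes the interval leaves out a change of 1.5-fold. Atf4 was at -0.18 and Ern1 at -0.29, with overlapping arrays. Eif2ak3, the gene of PERK, read 9.95, 9.61 and 9.79 against 9.39, 9.55 and 9.53. Its Zip13-KO arrays were all lower, and the difference did not pass (log2 fold change -0.29, SE 0.11, limma adjusted p = 0.0838). The median of the 5 genes was -0.18 with quantile normalization and -0.03 with the 75th percentile scaling.

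With the slide column as a block, the genotype is read within column 1 alone, from Zip13-KO replicate 1 against the 3 WT arrays, and that single array is assumed to vary like the others. In that fit Asns was at 0.73, Derl1 at 0.70, Trib3 at 0.91 and Sdf2l1 at -0.73. For these called members the sizes were close to those without the block. Other members moved more, Atf3 from -1.11 to -0.21 and Chac1 from 0.98 to 0.29. With 1 array in an arm only the sizes are given here. A difference between the columns cannot be told apart from one between Zip13-KO replicate 1 and the other Zip13-KO arrays.

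Other genes of the same pathways were read to see how far the pattern of the members extended. Over all genes, 18.7% were called in either direction and 50% were below 0. By the adjusted p alone, 19.3% of all genes were higher and 15.1% lower. Of 19 further folding and glycoprotein quality control enzymes, 18 were tested and 0 were called. By the adjusted p alone 1 was higher and 2 were lower, and 15 of 18 were below 0, with a median of -0.20. The lowest was Fkbp10, a collagen prolyl isomerase, with WT replicate 1 at 13.53 and the other 5 arrays between 11.22 and 11.98 (limma adjusted p = 0.148), and the highest was the oxidase Ero1a at 0.36. All 18 genes of ER translocation and signal peptide processing were tested and 0 were called. In this list 1 gene was higher and 3 were lower by the adjusted p alone, 14 of 18 were below 0 and the median was -0.13. Its extremes were Sec61g, a subunit of the translocation channel, which fell by 0.42 on the log2 scale (limma adjusted p = 0.0437), and Srp54a at 0.29. Of 19 other ER-associated degradation genes, 0 were called, 2 were higher and 1 was lower by the adjusted p alone, and the median was 0.00. They ranged from Ube2j2, a ubiquitin-conjugating enzyme that fell by 0.33 (limma adjusted p = 0.0251), to Ubxn4 at 0.48. Ubxn4 did not pass (limma adjusted p = 0.236) and was not well above background on Zip13-KO replicate 1, so that its size is uncertain. The plot of gene groups by array places these lists beside the members.

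**Figure D3:**
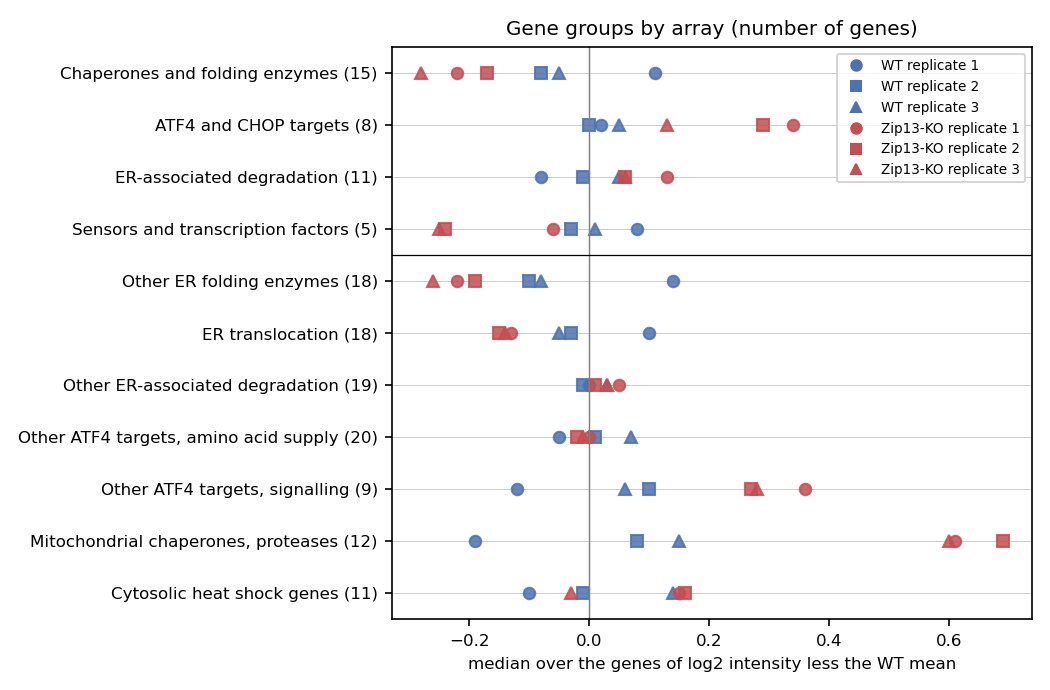
Median over the genes of each list of log2 intensity less the WT mean of the gene (x axis, log2 units), for each array. The 4 groups of members are above the line and 7 related lists below it, with the number of genes in parentheses. In chaperones, other ER folding enzymes and ER translocation all Zip13-KO arrays lie below all WT arrays and WT replicate 1 is the highest, whereas mitochondrial chaperones and proteases lie at 0.60 to 0.69 in Zip13-KO.

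Further ATF4 targets moved in both directions. Of 20 genes of amino acid supply, 1 was called higher and 4 lower, and the median was 0.01. Over all genes tested, 10.4% were called higher and 8.36% lower, and the difference from these shares was not tested. Psph, the last enzyme of serine synthesis, rose (log2 fold change 0.81, limma adjusted p = 0.033), and Cth, the cystathionine lyase of cysteine synthesis, was highest at 0.95 without passing (limma adjusted p = 0.0995). The 4 that fell were the cystine transporter Slc7a11 (log2 fold change -1.58, limma adjusted p = 0.0282), the large neutral amino acid transporter Slc7a5 (-0.97, 0.0126), the cationic amino acid transporter Slc7a1 (-0.68, 0.0104) and the mitochondrial folate enzyme Mthfd2 (-0.62, 0.0198). Slc7a11 read 5.20, 5.38 and 5.81 in WT and 2.98, 4.44 and 4.22 in Zip13-KO, and Slc7a5 read 6.84, 6.60 and 7.04 against 5.59, 5.80 and 6.16, in either case without overlap. Slc7a11 was not well above background on Zip13-KO replicate 1, the array at 2.98, so that the size of its fall is uncertain. Of 10 ATF4 targets in stress signalling 9 were tested, with a median of 0.40. Vegfa, the endothelial growth factor, rose (1.06, limma adjusted p = 0.00954), and Gdf15, a stress hormone, fell by 2.39 on the log2 scale (limma adjusted p = 0.0274), from 9.85, 7.65 and 8.52 to 6.95, 6.20 and 5.71. Asns and Slc7a5, both known ATF4 targets and well above background on all 6 arrays, were therefore called in opposite directions.

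**Figure D4:**
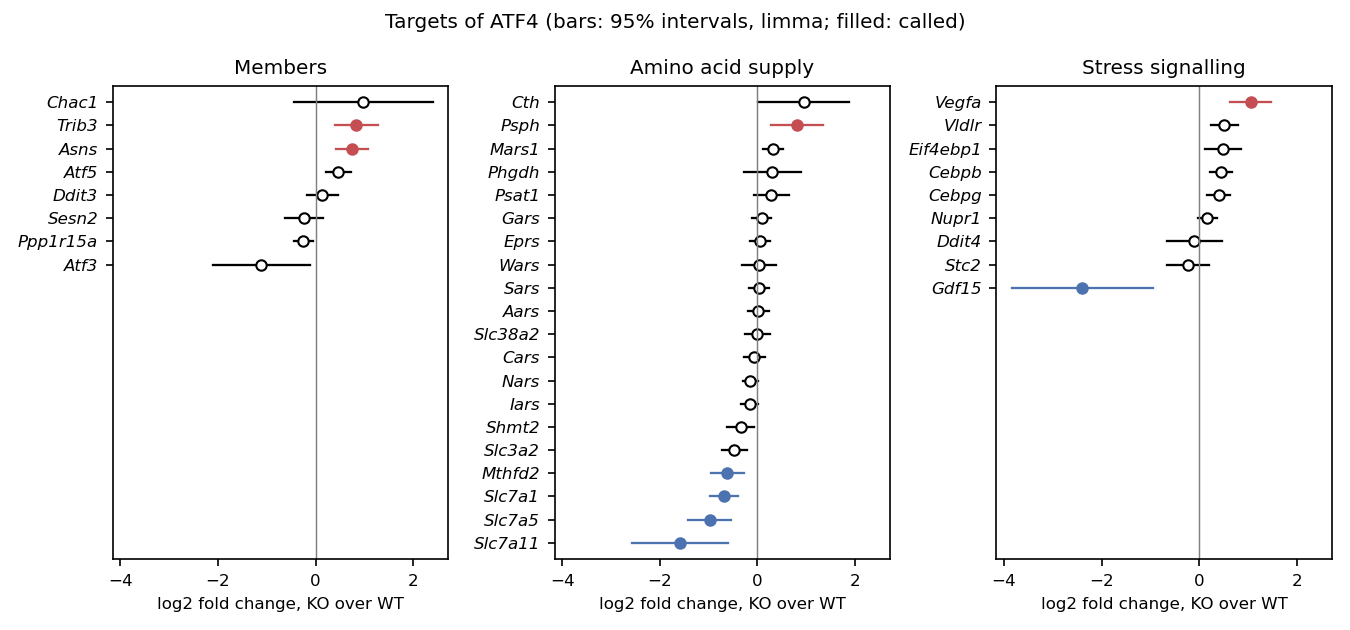
Log2 fold change in Zip13-KO over WT (x axis) with 95% intervals from limma for the 8 ATF4 and CHOP targets among the members, 20 other ATF4 targets of amino acid supply and 9 of stress signalling. Red and blue filled points were called higher and lower. Trib3, Asns, Psph and Vegfa lie to the right, and Slc7a11, Slc7a5, Slc7a1, Mthfd2 and Gdf15 to the left.

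Of 6 further genes around eIF2α, namely the kinases Eif2ak1, Eif2ak2 and Eif2ak4, the phosphatase subunit Ppp1r15b, eIF2α itself (Eif2s1) and Eif2b5, a subunit of its exchange factor, 1 was called. Eif2ak2, the kinase that senses double-stranded RNA, fell by 0.80 (limma adjusted p = 0.029), whereas Ppp1r15b rose by 0.44 (limma adjusted p = 0.0146), less than 1.5-fold. Over all genes, 18.7% were called in either direction and 50% were below 0. All 8 proteases and relatives of ATF6 were below 0, with a median of -0.24. Among them Creb3l4 fell by 0.79 (limma adjusted p = 0.0378), and Creb3l1, a relative of ATF6 that acts on collagen secretion, was at -0.80 without passing, again with WT replicate 1 highest at 11.55 and the other WT arrays at 10.79 and 10.06.

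Chaperones of other compartments were read alongside those of the ER. All 12 mitochondrial chaperones and proteases were above 0, with no overlap between genotypes in any, and 7 were called higher. Over all genes, 29.1% were higher without overlap and 10.4% were called higher. The median was 0.66. Dnaja3, a mitochondrial cochaperone, rose by 0.78 (limma adjusted p = 0.0104) and the protease subunit Afg3l2 by 0.75 (limma adjusted p = 0.00908). Hspa9, the mitochondrial relative of BiP, read 12.69, 13.08 and 13.19 in WT and 13.68, 13.76 and 13.59 in Zip13-KO and rose by 0.69 (limma adjusted p = 0.0165). Hspe1 was lowest at 0.30 and did not pass. Of 12 cytosolic heat shock genes 11 were tested, with a median of 0.10. Hspa1a, the inducible Hsp70, fell by 1.32 (limma adjusted p = 0.00788), and Hspb1 was highest at 0.45 without passing. Hspa5 and Hspa9, the BiP of the ER and its mitochondrial relative, thus differed from WT by -0.26 and 0.69.

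Markers of the cells in iWAT moved with the genotype, and in a bulk tissue fewer cells of a type and less RNA per cell cannot be told apart. The summed level of a marker list is the sum of linear intensities as a ratio to the WT mean. Over all genes, 10.4% were called higher, 8.36% were called lower and 50% were below 0. Of 9 stromal progenitor and fibroblast markers, all well above background on all arrays, 9 were below 0 and 3 were called lower, and the summed level was 0.677 to 1.40 in WT and 0.600 to 0.736 in Zip13-KO. WT replicate 1 was highest in stromal markers, at 1.40, and in the sum of the 15 chaperones and folding enzymes, at 1.11. By the list medians of log2 values, all Zip13-KO arrays lay below all WT arrays in both lists. Stromal markers were at 0.44, -0.07 and -0.41 in WT and at -0.62, -0.79 and -0.50 in Zip13-KO. Chaperones were at 0.11, -0.08 and -0.05 in WT and at -0.22, -0.17 and -0.28 in Zip13-KO. By the sums, the other arrays kept no common order within a genotype. WT replicates 2 and 3 were at 0.926 and 0.677 in stromal markers and at 0.937 and 0.952 in chaperones. Within Zip13-KO, replicate 2 was lowest in stromal markers, at 0.600, and highest in chaperones, at 0.860. Of 10 macrophage markers, 10 were below 0 and 8 were called lower, with sums of 0.821 to 1.29 in WT and 0.410 to 0.504 in Zip13-KO. WT replicate 1 was highest in this list as well, at 1.29. Adipocyte markers were all 12 above 0 and 4 were called higher, with sums of 0.820 to 1.13 in WT and 1.31 to 1.35 in Zip13-KO. WT replicate 1 was the lowest array in adipocyte markers, at 0.820. All 8 markers of brown and beige adipocytes were called higher, up to a log2 fold change of 5.16 for Ucp1. The part of these shifts in the values of the members was not tested.

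For some members the order of the arrays ran beside that of a marker list. Derl3 was highest in WT replicate 3 and lowest in Zip13-KO replicate 1. The median of 11 plasma cell and B cell markers was likewise highest in WT replicate 3, at 0.14, and lowest in Zip13-KO replicate 1, at -0.60. Single markers differed. Mzb1, a plasma cell gene, had its extremes on the same arrays, at 10.94 and 9.76. Sdc1 was highest in WT replicate 1 and lowest in Zip13-KO replicate 2. Irf4 and Tnfrsf17 were highest in Zip13-KO replicate 3 and lowest in WT replicate 2 and Zip13-KO replicate 2. Of 11 plasma cell and B cell markers, 10 were below 0 and 2 were called lower (Sdc1 and Pax5). Over all genes, 50% were below 0 and 8.36% were called lower. The summed level of the 11 markers was 0.918 to 1.13 in WT and 0.670 to 0.747 in Zip13-KO. Chac1 was lowest in WT replicate 2 and highest in Zip13-KO replicate 3, as was the median of 9 skeletal muscle markers, which was -0.03, -0.49 and 0.51 in WT and -0.08, 0.54 and 2.06 in Zip13-KO. Single muscle markers differed here too. Ryr1 was highest in WT replicate 2, at 8.14, Mylpf was highest in WT replicate 3, at 5.85, and Myh2 was lowest in WT replicate 1, at 4.47. Of the 9 muscle markers 0 were called and 8 were above 0. Their sums were 0.616 to 1.43 in WT and 0.828 to 3.13 in Zip13-KO. Atf3, within Zip13-KO, was highest in replicate 1, as was the median of 18 immediate early genes, which was 0.59 in that array and -0.19 and -0.11 in the other Zip13-KO arrays. Among the immediate early genes Nr4a1 (1.25) and Nr4a2 (1.24) were called higher. Fosl1 was called lower (limma adjusted p = 0.0135) but none of its Zip13-KO readings was well above background. It was at least 4.96-fold lower, when each Zip13-KO array is raised to its lowest signal well above background. Fosb was highest at 1.60 without passing. What part these lists have in the values of Derl3, Chac1 and Atf3 was not tested.

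**Figure D5:**
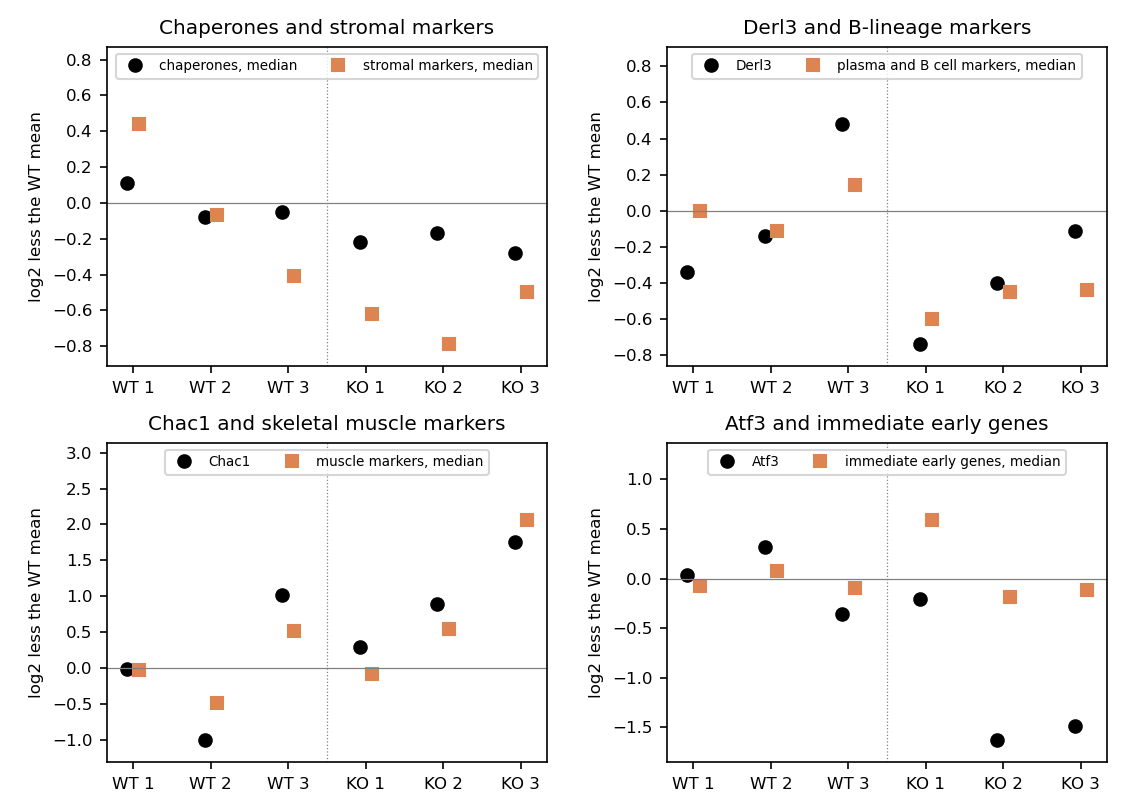
Values on each array less the WT mean (y axis, log2 units) for a member or the median of a group of members (black circles) and for the median of a marker list (orange squares). Stromal markers and chaperones are both highest in WT replicate 1, and in both all Zip13-KO arrays lie below all WT arrays. They differ in the order of the other arrays within a genotype. Derl3 and the median of plasma and B cell markers are both highest in WT replicate 3 and lowest in Zip13-KO replicate 1. Chac1 and muscle markers are both highest in Zip13-KO replicate 3. Atf3 and immediate early genes within Zip13-KO are both highest in replicate 1.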

How the data were processed

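Total RNA of iWAT was measured in 3 WT and 3 Zip13-KO samples. The authors deposited the scanner output (per the file headers, Feature Extraction 11.5.1.1), whose processed signal is an intensity per spot after background subtraction and spatial detrending, and a table of log2 values of the median signal, quantile normalized by the authors. The processed signal was taken as log2 and quantile normalized over all spots that were not controls. Outlier spots were removed and spots of a probe averaged. Probes well above background on all 3 arrays of a genotype were kept (33039 of 55681). Accessions were matched to RefSeq genes (GRCm38.p6) without version, and 50.9% of probes had a symbol. The brightest kept probe stood for a gene, and other probes of a member are given where they differ in sign or call. The genotypes were compared with limma 3.58.1 (lmFit and eBayes, no covariate) in R 4.3.3, with Benjamini-Hochberg adjustment over 15307 genes, after the steps had been tested on simulated data. Precision is limited by the number of arrays.

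The members and all lists (other folding enzymes, ER translocation, other ER-associated degradation, other ATF4 targets, eIF2α and its regulators, ATF6 relatives, mitochondrial and cytosolic chaperones, immediate early genes, and markers of adipocytes, brown and beige adipocytes, macrophages, B cells, T cells, neutrophils, endothelium, stroma, muscle and mammary epithelium) were chosen with earlier results of these data known. Older symbols were updated through RefSeq synonyms. Named genes are every member, Slc39a13, and from each pathway list the largest and smallest fold change and up to 4 further called genes. Markers, and the genes singled out by array order, were named after their values were seen. Alternatives were the 75th percentile, normexp (offset 50) and no background correction (both on the median signal, since no mean signal was used), the deposited log2 table, other filters, the mean of probes, a robust prior with an intensity trend, the methods' t-test (without the median-ratio test that the study combined with it), the adjusted p alone, a replicate block, the slide column and leaving out each array. The methods' t-test without adjustment was chosen after seeing the data.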

Additional observations from a re-analysis of the deposited data

How the results depend on the processing

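The counts of called members were 3 higher and 1 lower in the reported fit. They were 6 and 2 by the adjusted p alone and 0 and 0 with the slide column as a block, and leaving out 1 array gave 2 to 4 higher and 1 to 2 lower. Over all genes, 1585 were called higher and 1279 lower. The methods' t-test with adjustment, run without the study's median-ratio test, gave 1008 and 707, the adjusted p alone 2948 and 2317, and the slide column block 0 and 7. Leaving out 1 array gave 966 to 1657 higher and 770 to 1450 lower, the lowest without Zip13-KO replicate 1 (966 and 770), and 1023 and 795 without Zip13-KO replicate 2. The median of ATF4 and CHOP targets was 0.39 with the 75th percentile and 0.34 with the slide column block, and 0.21 to 0.39 when 1 array was left out. That of ER-associated degradation was 0.20 with the 75th percentile and 0.02 to 0.12 when 1 array was left out, the lowest without WT replicate 1. That of sensors and transcription factors was -0.03 with the 75th percentile, -0.06 with the slide column block and -0.24 to -0.14 when 1 array was left out. The chaperone median moved by less than the spread of the WT arrays under every alternative run and was -0.25 to -0.19 when 1 array was left out. Over the alternatives, the single-member results kept their side of the limits in 725 cases, lost a call in 8 and gained one in 8. The 725 are mostly cases in which an uncalled member stayed uncalled. Of the called members, Trib3 lost its call in 4 of 19 alternatives, Derl1 in 2, and Asns and Sdf2l1 in 1 each. No called member changed sign. Trib3 lost its call with the adjusted methods' t-test as well (adjusted p = 0.0635).

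The replicate numbers gave no sign of a pairing. Same-numbered arrays had correlations of their deviations from the group means of -0.02, 0.04 and -0.08. Those of arrays with different numbers ran from -0.17 to 0.18. With 3 arrays in each genotype these values cannot show that the samples were unpaired, and the paper describes the WT mice as littermates. With the replicate number as a replicate block, 3 members were called higher and 1 lower, the same genes as without it, and Atf5, Edem3 and Hspa5 no longer passed the adjusted p alone (0.051, 0.0754 and 0.085).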

Other observations

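Other cell type markers were read on the same arrays. Over all genes, 10.4% were called higher and 8.36% lower, and 15.1% were lower by the adjusted p alone. Of 6 neutrophil markers tested, 4 were called lower, S100a8 and S100a9 among them, with summed levels of 0.914 to 1.11 in WT and 0.203 to 0.567 in Zip13-KO, and Zip13-KO replicate 1 was the lowest. All 7 T cell markers were below 0, with 0 called and 3 lower by the adjusted p alone (limma). Of 7 endothelial markers 1 was called higher, Cdh5, with a log2 fold change of 0.76. Of 12 mammary epithelium markers 7 were tested and 0 were called, with 0 past the adjusted p alone.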
